A study of Caenorhabditis elegans with 6 samples.

Results

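The expression of 10 secreted peptide genes of the worm epidermis, 6 of the nlp family (nlp-27, nlp-28, nlp-29, nlp-30, nlp-31 and nlp-34) and 4 of the cnc family (cnc-1, cnc-2, cnc-3 and cnc-4), was examined in pals-25(icb98) mutants grown without infection. They were chosen by name, as the 10 antimicrobial peptide genes of the 2 families that are best known from fungal infection of the epidermis, and were found through the transcript names in the tables, 10 of 22010 genes in all. The nlp genes (neuropeptide-like proteins) and cnc genes (caenacins) encode short, glycine-rich peptides made in the epidermis, the single tissue layer that lies under the cuticle. When the fungus Drechmeria coniospora pierces the cuticle, or when the cuticle is wounded, the nlp genes are switched on through a G protein and a p38 MAP kinase cascade inside the epidermis, and nlp-29 is the standard reporter of this response. The cnc genes, cnc-2 foremost, depend more on the TGF-beta ligand DBL-1, which is released by neurons. Oomycetes infect the same tissue but set off a separate programme, the oomycete recognition response (ORR), of which the chitinase-like gene chil-27 is the usual marker. The intracellular pathogen response (IPR) to microsporidia and viruses is the other programme controlled by the antagonistic paralogs pals-22 and pals-25.

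RNA was sequenced from whole L4 larvae, 3 libraries of WT and 3 of pals-25(icb98), each raised at 20°C on E. coli OP50. The WT strain carried the reporter icbIs4, with chil-27p::gfp and col-12p::mCherry, on chromosome II, and the mutant strain carried the same reporter together with the icb98 allele on chromosome III, so that the reporter was shared by both groups. The icb98 allele is a single line from a chemical mutagenesis screen with a premature stop in pals-25 that acts as a gain of function. The mutant therefore stands for 1 allele without a pathogen, and no library was infected or wounded. The labels describe the replicates as biological without naming separate cultures, so the p-values measure the spread between these samples.

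Values are counts that were estimated per transcript and summed per gene. Levels are given as CPM, counts relative to the scaled total of the library, or as TPM, which also divides by transcript length and so allows 1 gene to be set against another. A gene was called when its edgeR p-value, adjusted over all 16166 genes that passed a filter on low counts, was under 0.05. Libraries held 40709626 to 47297002 counts. WT replicate 2 stood apart from the other WT libraries, with 2073 and 1841 genes over 2-fold away from WT replicates 1 and 3, which differed from each other at 15 genes, and the mutant libraries differed among themselves at 11 to 30 genes. Its summed TPM was the highest of the WT libraries for 13 epidermal marker genes (848, against 476 at the lowest). The same held for 6 furrow collagens (1458, against 349). The sum was the lowest for 6 vitellogenins (488, against 990 at the highest) and 14 germline and sperm genes (922, against 1821). It was also the lowest for 32 molting and apical matrix genes (10710, against 13774). Single genes within these lists went both ways. Among the epidermal markers, dpy-7 was at 78.4, 303 and 114 CPM in WT and mup-4 at 421, 199 and 359 CPM. Among the molting genes, mlt-11 was at 320, 1337 and 491 CPM and the collagen dpy-13 at 2934, 1594 and 2649 CPM. Changes of the tested peptide genes are therefore given with and without WT replicate 2. Markers of both programmes were high in the mutant. chil-27 stood at 0.126, 0.0485 and 0.221 CPM in WT and 36.2, 40.2 and 33.5 CPM in the mutant. The screen that gave icb98 selected for expression of the chil-27 reporter. The IPR gene pals-5 stood at 0.105, 0.194 and 0.0984 CPM in WT and 24.3, 20.9 and 23.2 CPM in the mutant. pals-25 itself rose by 0.98 on the log2 scale (edgeR adjusted p = 0.0145, up to 0.0711 when 1 library was left out). None of the 10 peptide genes is in the study's IPR list of 80 genes or its ORR list of 206 genes.

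The peptide genes did not move together in the mutant. cnc-3 fell 3.63-fold and was the 1 gene of the 9 tested that was called. The other 8 tested genes were not called, 5 with fitted changes above 0 and 3 below, and cnc-1 had no counts. No member was called higher, where 9.80% of all tested genes were, and 1 of 9 (11.1%) was called lower, where 10.7% of all tested genes were, so that the share of calls was near that of the whole table. At an unadjusted p under 0.05, edgeR gave 1 higher and 4 lower. DESeq2 called 1 higher (nlp-34) and limma-voom called 0 higher. The groups did not overlap for 2 members that were higher in the mutant (22.2%, against 24.4% of all tested genes) and 3 that were lower (33.3%, against 24.8%). These 3, and the 4 lower at an unadjusted p under 0.05, include cnc-2. That gene passed the filter on low counts only through its WT libraries, the group where it is high, so its place in these counts is no independent result.

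**Figure D1:**
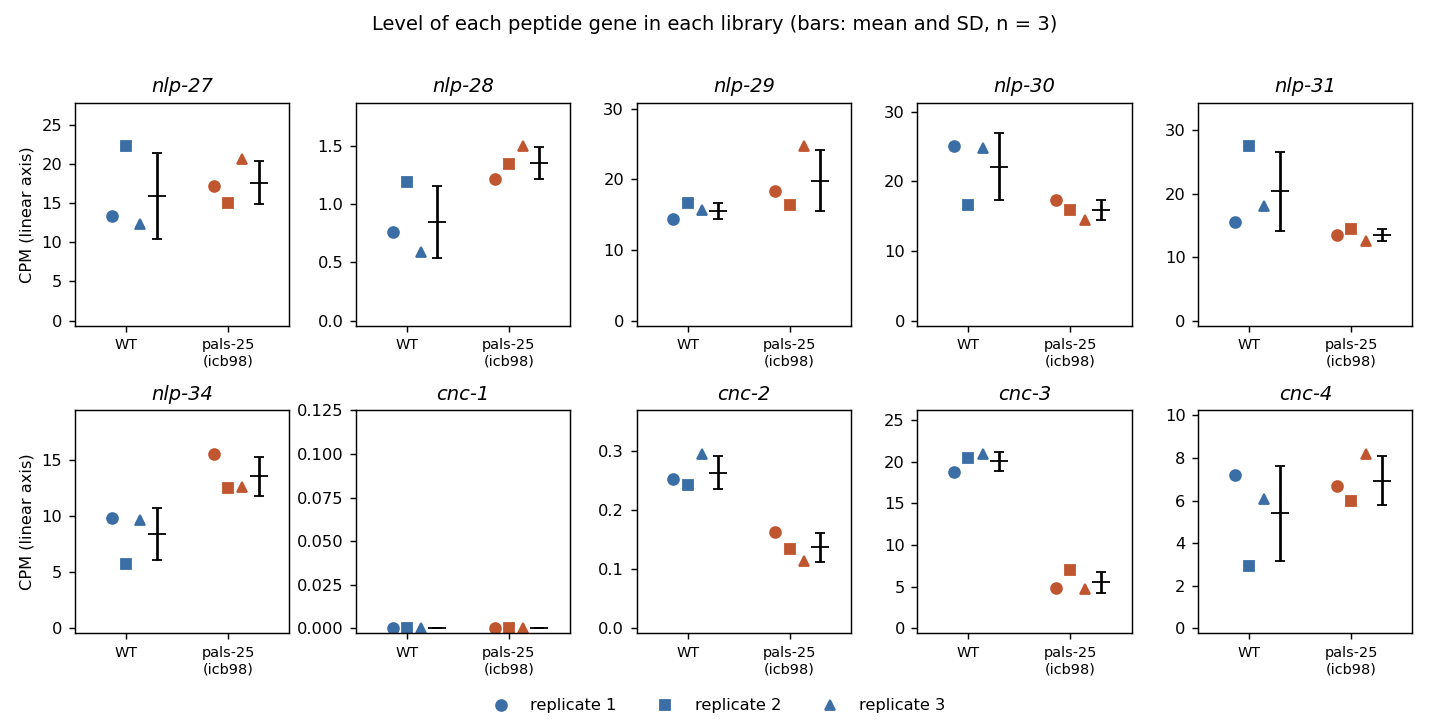
Level of each of the 10 genes in each library, in CPM on a linear axis with its own scale per gene; symbols mark the replicate number and the bars beside them the mean and SD of 3 libraries. The cnc-3 points of the mutant (4.75 to 6.97 CPM) lie far below those of WT (18.8 to 20.9 CPM), whereas WT replicate 2 (square) is the extreme WT point for most other genes.

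The cnc family is described first. cnc-3 (R09B5.8, WBGene00000557, chromosome V in the WBcel235 annotation, 1448004 to 1448792, plus strand) had 890, 845 and 851 counts in WT and 207, 311 and 210 counts in pals-25(icb98). These correspond to 18.8, 20.5 and 20.9 CPM in WT and 4.83, 6.97 and 4.75 CPM in the mutant. The 3 WT libraries were alike, WT replicate 2 included, the 3 mutant libraries were all low, and the groups were far apart. The mean went from 20.1 ± 1.15 to 5.51 ± 1.26 CPM (SD, n = 3), a log2 change of -1.86 (SE 0.18, 95% interval -2.29 to -1.44; edgeR adjusted p = 0.00193). Without WT replicate 2 the change was -1.85 (edgeR adjusted p = 5.7e-05).

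Its neighbour cnc-4 (R09B5.9, chromosome V, 1447195 to 1447707, plus strand) ends 296 bases before cnc-3 begins. WT libraries held 342, 120 and 247 counts of it and mutant libraries 286, 266 and 362, or 7.21, 2.91 and 6.08 CPM against 6.67, 5.96 and 8.19 CPM. The groups overlapped, and the low value was WT replicate 2, which had less than any other library. The fitted change was 0.36 (SE 0.34; edgeR adjusted p = 0.480), and 0.06 without WT replicate 2 (edgeR adjusted p = 0.788). The adjacent genes thus had changes of opposite sign, and only that of cnc-3 passed the test.

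cnc-2 (R09B5.3, chromosome V, 1449665 to 1450183, minus strand), the caenacin most often used to report DBL-1 signalling, was barely expressed. WT libraries held 12, 10 and 12 counts and mutant libraries 7, 6 and 5, that is 0.253, 0.242 and 0.295 CPM against 0.163, 0.134 and 0.113 CPM. Every mutant library was below every WT library, at a depth where a single count moved the value visibly and where the gene passed the filter on low counts through its WT libraries. The log2 change of -0.93 (SE 0.31) was not called (edgeR adjusted p = 0.0835), and was called in the 3 settings that scale per length, such as log2(TPM + 1) with limma (-0.45, adjusted p = 0.0225), and was not called by DESeq2 (adjusted p = 0.218). Its change was -0.98 without WT replicate 2 (edgeR adjusted p = 0.156). The counts sat wholly in 1 of its isoforms in some libraries and wholly in another in the rest, so only the gene total was used.

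cnc-1 (R09B5.2, chromosome V, 1444044 to 1444280, minus strand) was at 0 counts in all 6 libraries. A count of 0 allows 3 counts in a library, or 0.0632 to 0.0738 CPM. Its transcript model is 189 bases long, with an effective length of 49.4 bases in WT replicate 1, a length shared by 1 isoform of cnc-2 and the shortest among the transcripts of the 10 genes, so that low expression was hardly detectable.

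Per length, the summed cnc level was 82.8, 77.0 and 86.8 TPM in WT and 36.5, 42.1 and 41.4 TPM in pals-25(icb98). The sum lay lower in every mutant library, and the means of 82.2 ± 4.89 and 40.0 ± 3.07 TPM (SD, n = 3) differed by -1.04 on the log2 scale (-1.08 without WT replicate 2). cnc-3 made up 70.8%, 86.01% and 75.9% of it in WT and 40.6%, 52.6% and 35.8% in the mutant. cnc-3 held the larger share in every WT library and in mutant replicate 2, and cnc-4 in mutant replicates 1 and 3. On average cnc-4 took 20.9 ± 7.79% in WT and 55.4 ± 8.67% in the mutant (SD, n = 3), without itself being called. The WT means were 73.4% for cnc-3 and 25.2% for cnc-4 without WT replicate 2. The ratio of cnc-3 to cnc-4 counts, which does not depend on how libraries are scaled, was 2.60, 7.04 and 3.45 in WT and 0.724, 1.17 and 0.580 in the mutant. This ratio was picked after its values were seen. Each mutant library had a lower ratio than each WT library, and an exact two-sided permutation test gave p = 0.10, the smallest value that the 20 splits of 3 against 3 allow.

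**Figure D2:**
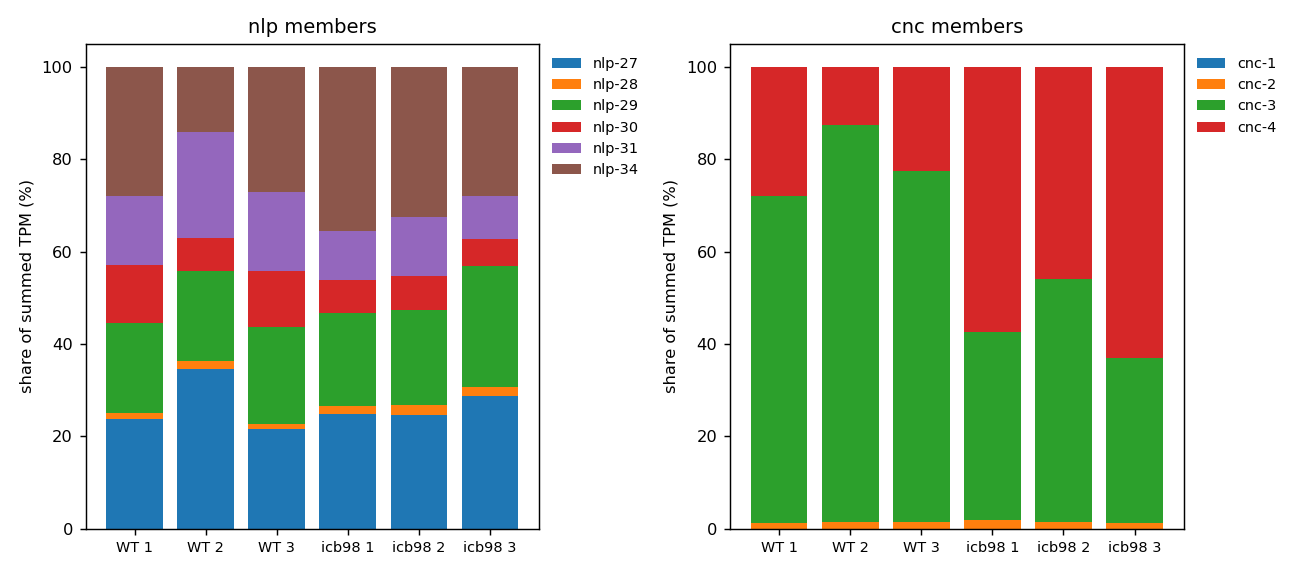
Share of each gene in the summed TPM of its family, in percent, for each of the 6 libraries (left, 6 nlp genes; right, 4 cnc genes). cnc-3 fills 70.8% to 86.01% of the cnc bars in WT and 35.8% to 52.6% in pals-25(icb98), and cnc-4 the larger part of what remains; cnc-1 is at 0.

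In the nlp family no gene was called in the comparison of all 6 libraries. nlp-29 (B0213.4, chromosome V, 3984425 to 3984847, plus strand), the reporter gene of fungal infection and wounding, had 14.3, 16.6 and 15.7 CPM in WT and 18.3, 16.4 and 24.7 CPM in pals-25(icb98). Mutant replicate 3 was the highest library, mutant replicate 2 fell within the WT range, and the groups overlapped. The log2 change was 0.35 (SE 0.17, 95% interval -0.06 to 0.75; edgeR adjusted p = 0.193), and 0.40 without WT replicate 2 (edgeR adjusted p = 0.166). In counts these were 680, 685 and 639 in WT and 784, 732 and 1090 in the mutant. nlp-29 was the nlp gene least altered in WT replicate 2, at 0.14 on the log2 scale from the mean of the other WT libraries.

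nlp-34 (B0213.17, chromosome V, 3978825 to 3979134, minus strand) is the outermost gene of the run and the 1 nlp gene in it that is read from the minus strand. It had 9.80, 5.69 and 9.62 CPM in WT and 15.5, 12.5 and 12.6 CPM in the mutant. All mutant libraries were above all WT libraries, among which replicate 2 was low. The change of 0.69 (SE 0.23) was not called by edgeR (adjusted p = 0.0867), was called by DESeq2 (adjusted p = 0.0250), and was 0.48 without WT replicate 2 (edgeR adjusted p = 0.00537).

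nlp-31 (B0213.6, chromosome V, 3980055 to 3980622, plus strand), whose peptide has shown antifungal activity in vitro, had 15.6, 27.5 and 18.1 CPM in WT and 13.5, 14.5 and 12.6 CPM in the mutant. All mutant libraries were below all WT libraries, narrowly so for WT replicate 1, while WT replicate 2 was high. The change of -0.59 (SE 0.22; edgeR adjusted p = 0.110) became smaller and was called without WT replicate 2 (-0.32, edgeR adjusted p = 0.0195).

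nlp-30 (B0213.5, chromosome V, 3981980 to 3982741, plus strand) had 25.02, 16.5 and 24.7 CPM in WT and 17.3, 15.8 and 14.5 CPM in the mutant. WT replicate 2 lay among the mutant libraries and the other WT libraries above them. The change was -0.48 (SE 0.18; edgeR adjusted p = 0.111), and -0.65 without WT replicate 2 (edgeR adjusted p = 9.6e-05).

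nlp-27 (B0213.2, chromosome V, 3989378 to 3989770, plus strand) had 13.4, 22.3 and 12.3 CPM in WT and 17.3, 15.1 and 20.6 CPM in the mutant. WT replicate 2 was the highest of all libraries and the other WT libraries were the lowest, so the groups overlapped on account of 1 sample. The change was 0.14 (SE 0.26; edgeR adjusted p = 0.710), -0.02 without WT replicate 3 (edgeR adjusted p = 0.971), and 0.46 without WT replicate 2 (edgeR adjusted p = 0.0190).

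nlp-28 (B0213.3, chromosome V, 3987900 to 3988316, plus strand) was the weakest of the nlp genes, with 36, 49 and 24 counts in the WT libraries and 52, 60 and 66 in those of the mutant. In CPM these were 0.759, 1.19 and 0.590 against 1.21, 1.34 and 1.49. The groups did not overlap, although WT replicate 2 came close to mutant replicate 1. The change was 0.67 (SE 0.29; edgeR adjusted p = 0.151), and 0.99 without WT replicate 2 (edgeR adjusted p = 0.0105).

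Without WT replicate 2, edgeR called 3 members higher (nlp-27, nlp-28 and nlp-34), where 19.3% of 16365 tested genes were called higher, and 3 lower (nlp-30, nlp-31 and cnc-3), where 18.2% were called lower. The call of cnc-3 was common to both fits. The deviation of WT replicate 2 from the mean of WT replicates 1 and 3 was as large as the fitted changes for several genes: 0.80 on the log2 scale for nlp-27, 0.83 for nlp-28 and 0.71 for nlp-31 on the high side, and -0.59 for nlp-30, -0.77 for nlp-34 and -1.19 for cnc-4 on the low side. For cnc-3 it was 0.05. The part that the epidermal marker, furrow collagen, molting, vitellogenin, germline and sperm levels of this library have in these deviations was not tested. In RNA from whole animals, fewer cells of a type and less RNA per cell cannot be told apart.

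**Figure D3:**
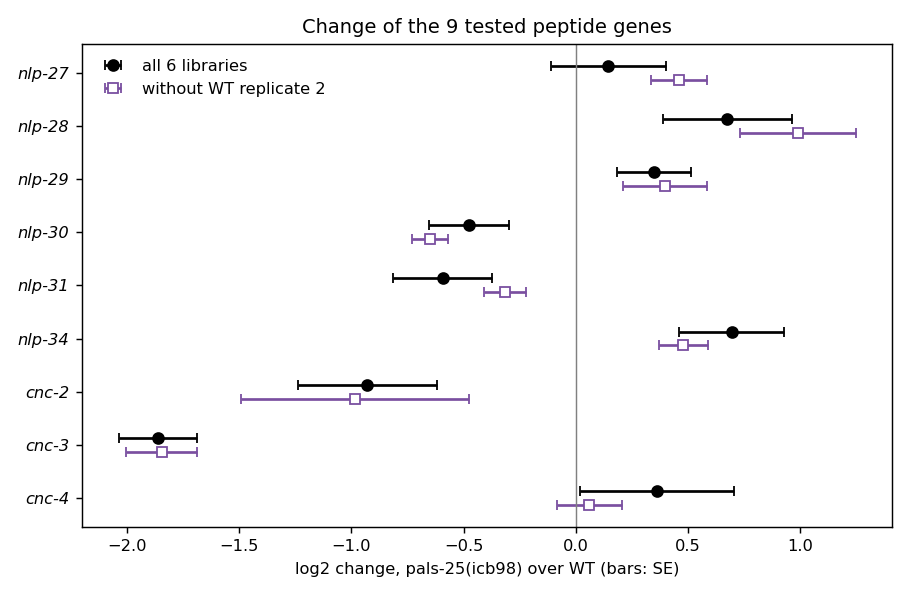
Log2 change of pals-25(icb98) over WT for the 9 tested genes, with standard errors, from all 6 libraries (filled circles) and without WT replicate 2 (open squares). cnc-3 is at -1.86 and -1.85 in the 2 fits, whereas nlp-27 goes from 0.14 to 0.46 and nlp-31 from -0.59 to -0.32.

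Set against each other per length, the nlp genes spanned a wide range of levels. In WT the order was nlp-27 (91.2 ± 33.5 TPM; SD, n = 3), nlp-34 (75.6 ± 19.6), nlp-29 (67.6 ± 6.35), cnc-3 (63.6 ± 4.30), nlp-31 (62.6 ± 20.4), nlp-30 (35.1 ± 7.20), cnc-4 (17.4 ± 6.95), nlp-28 (4.44 ± 1.71) and cnc-2 (1.21 ± 0.14), with cnc-1 at 0. From nlp-27 down to nlp-31 the library ranges of neighbours in this order overlapped, and from nlp-31 on they did not. Without WT replicate 2, nlp-34 (86.9 TPM) was above nlp-27 (72.0 TPM) in WT and the places below were the same. In pals-25(icb98) nlp-34 led at 118.96 ± 13.03 TPM, with a range that overlapped that of nlp-27 (98.0 ± 15.1), which in turn overlapped that of nlp-29 (84.2 ± 18.2). cnc-3 went from the fourth place to the seventh, at 17.3 ± 4.23 TPM, below cnc-4 at 22.1 ± 3.53 TPM, whose range it overlapped. For nlp-30 the groups overlapped in CPM and were just apart in TPM, where the lowest WT library had 26.84 and the highest mutant library 26.80. The order of levels rests on effective lengths, 98 bases for nlp-34 and 552 for nlp-30 in WT replicate 1. By counts, nlp-30 held on average 26.9% and nlp-34 10.2% of the nlp sum in WT. By TPM these shares were 10.6% and 22.97%.

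The summed nlp level was 313, 376 and 321 TPM in WT and 378, 345 and 399 TPM in the mutant, and the groups overlapped. The means of 337 ± 33.9 and 374 ± 27.4 TPM (SD, n = 3) differed by 0.15 on the log2 scale, and summed counts by 0.002. The TPM difference was 0.24 without WT replicate 2. Within the family nlp-31 went from 18.3 ± 4.04% to 10.99 ± 1.72% of the sum, and nlp-34 from 22.97 ± 7.69% to 31.9 ± 3.83% (SD, n = 3). WT replicate 2 had the lowest nlp-34 share and the highest nlp-31 share of the WT libraries, and without it the differences went from 8.94 to 4.51 percentage points for nlp-34 and from -7.35 to -5.10 for nlp-31. The ratio of nlp-31 to nlp-29 counts, also picked after its values were seen, was 1.09, 1.66 and 1.15 in WT and 0.741, 0.881 and 0.509 in the mutant, with no overlap (exact two-sided permutation p = 0.10, the smallest possible).

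The nlp genes lie side by side, in the order nlp-34, nlp-31, nlp-30, nlp-29, nlp-28 and nlp-27, within 10.9 kb of chromosome V in the WBcel235 annotation, and no other annotated gene lies between them. Along this run the log2 changes were 0.69, -0.59, -0.48, 0.35, 0.67 and 0.14, and none of them was called. The genes with changes below 0 sat next to each other and were flanked on both sides by genes above 0. The sign at the nlp-27 end is uncertain (SE 0.26, and -0.015 without WT replicate 3). The cnc genes occupy 6.14 kb of the same chromosome, 2529 kb away, with cnc-5 among them, which was at 0 in all libraries. On the cnc-1 side the next gene is cnc-11, another caenacin, with 0 to 3 counts per library. The other nearest annotated genes, str-83, K09D9.9 and srj-23, had 0 to 9 counts. R09B5.11, which lies beyond cnc-11, fell from 372, 301 and 301 counts in WT to 198, 201 and 157 in the mutant (log2 change -0.83, edgeR adjusted p = 0.0132) and was picked out after its value was seen.

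**Figure D4:**
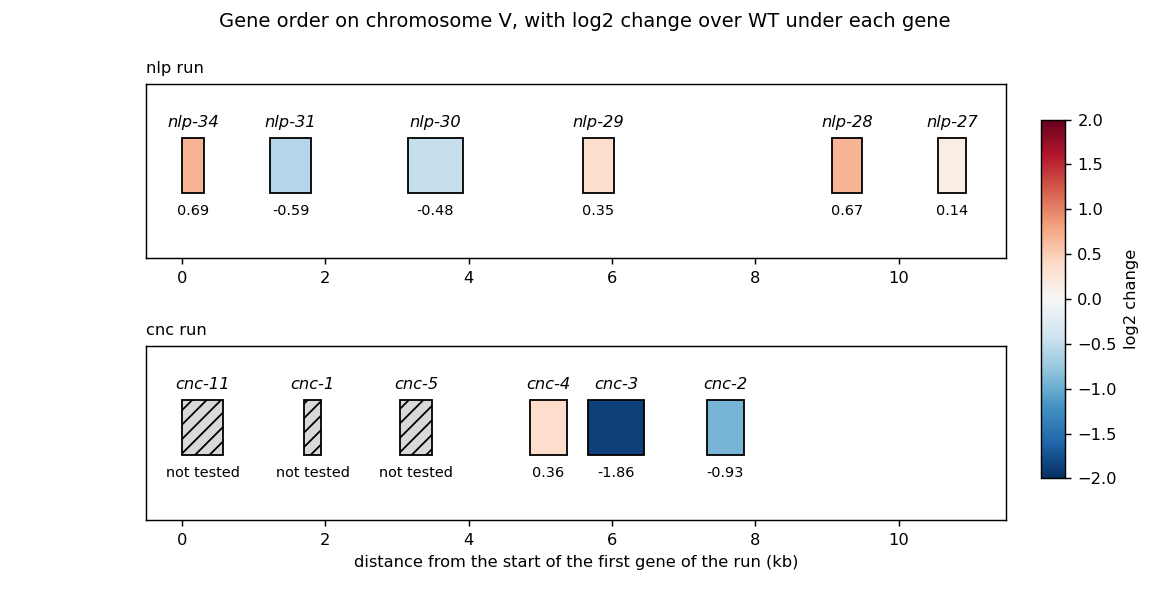
The nlp and cnc runs drawn to scale from the start of the first gene of each (kb), coloured by log2 change over WT, with the value below each gene; hatched genes had too few counts for a test. Changes of opposite sign lie next to each other in both runs, at nlp-34 and nlp-31 and at cnc-4 and cnc-3, of which cnc-3 alone was called.

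Related peptide genes outside the 10 were read from a list of 12 further nlp and cnc genes, of which 6 could be tested. nlp-25 was called higher, at 1.67, 0.703 and 1.16 CPM in WT and 2.73, 2.51 and 3.82 CPM in the mutant (log2 change 1.35, SE 0.34, edgeR adjusted p = 0.0415). This call was lost on leaving out any 1 of WT replicate 3 and the mutant libraries (adjusted p up to 0.136). cnc-8 was at 10.96, 31.9 and 13.97 CPM in WT and 29.1, 28.6 and 35.5 CPM in the mutant, where WT replicate 2 lay with the mutant libraries (log2 change 0.71, edgeR adjusted p = 0.263); it was picked after its values were seen. The most abundant of the list, nlp-33 (134 ± 35.3 to 154 ± 7.10 CPM) and nlp-24 (108 ± 13.4 to 109 ± 5.06 CPM; SD, n = 3), were not called. In the list 1 of 6 tested genes was called higher and 0 lower (also 0 lower at an unadjusted p under 0.05 and by DESeq2), with a median log2 change of 0.11 beside 0.005 for all tested genes. Without WT replicate 2, 3 of the 6 were called higher. Over all tested genes 9.80% were called higher and 10.7% lower, and 19.3% and 18.2% without WT replicate 2. Counts in the lists below stand beside these shares.

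The fip and fipr genes encode further small secreted peptides that were first noted for induction by the same fungus. Of 36 that were matched, 18 were tested, with a median log2 change of 1.07. Among the tested, 5 were called higher and 3 lower, where 9.80% and 10.7% of all tested genes were. fipr-13 was near the floor in WT (0.105, 0.121 and 0.197 CPM) and at 2.10, 2.55 and 2.65 CPM in the mutant, 4.09 higher on the log2 scale (SE 0.27, edgeR adjusted p = 4.7e-04). With 5, 5 and 8 counts in WT, it passed the filter on low counts only through its mutant libraries, the group where it is high. In the other direction, fip-2 fell from 33.2 ± 3.91 to 13.1 ± 0.63 CPM (log2 change -1.34, edgeR adjusted p = 8.1e-04), and fipr-21, by far the most abundant of them, from 298 ± 31.6 to 163 ± 15.1 CPM (log2 change -0.87, edgeR adjusted p = 0.0042; SD, n = 3). fipr-8 rose by 1.89 (edgeR adjusted p = 0.0157) and fip-6 fell by 1.23 on the log2 scale (edgeR adjusted p = 0.0144). The estimates of fipr-4 to fipr-11 were not whole numbers in most libraries, which marks reads divided between similar transcripts, so their single values are uncertain. Calls in the list depended on the WT libraries: without WT replicate 2, 14 were called higher and 3 lower, and without WT replicate 3, 1 was called higher and 2 lower. Without mutant replicate 1 or 3, 1 was called higher and 2 lower, and without WT replicate 1 or mutant replicate 2, 2 were called higher.

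The cascade that switches on the nlp genes was followed from receptor to transcription factor in a list of 17 genes, which also held regulators that oppose it. Of the 17 genes 6 were called higher and 0 lower (also 0 lower at an unadjusted p under 0.05 and by DESeq2), with a median log2 change of 0.05. Over all tested genes 9.80% were called higher and 10.7% lower. dcar-1, the receptor, was at 36.1 ± 1.53 CPM in WT and 36.4 ± 0.66 CPM in the mutant and was not called. Next to it, gpa-12, the G protein alpha subunit, rose by 0.60 (edgeR adjusted p = 0.0271) and tpa-1, a protein kinase C, by 0.68 (edgeR adjusted p = 0.0057). Among the kinase cascade proper, tir-1, the adaptor at its head, rose by 0.44 (edgeR adjusted p = 0.0404), while nsy-1 (-0.04), sek-1 (-0.03) and the p38 kinase pmk-1 (-0.11) were not called (edgeR adjusted p = 0.711, 0.733 and 0.515).

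cebp-1, a bZIP transcription factor, had the largest change of the cascade list. It was at 16.3, 15.3 and 16.6 CPM in WT and 45.5, 42.2 and 45.4 CPM in the mutant, and the groups were far apart (log2 change 1.47, SE 0.06, edgeR adjusted p = 8.9e-05). nipi-3, a Tribbles-like pseudokinase known to hold cebp-1 down, was at 35.3, 38.7 and 35.5 CPM in WT and 54.9, 50.9 and 53.0 CPM in the mutant (log2 change 0.54, edgeR adjusted p = 0.0037). Both rose together, as did vhp-1, a MAP kinase phosphatase that opposes the cascade (0.32, edgeR adjusted p = 0.0390). sta-2 (-0.27), the STAT-like factor that acts on nlp-29, and elt-3 (-0.22), an epidermal GATA factor, were not called (edgeR adjusted p = 0.422 and 0.548). Leaving out any 1 of the libraries other than WT replicate 2 left 3 of the 6 calls, and leaving out WT replicate 2 gave 8. The calls of cebp-1, nipi-3 and tpa-1 held in each of these fits, with edgeR adjusted p up to 0.0020, 0.0277 and 0.0393.

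For the DBL-1 pathway, 12 genes were tested, 0 were called higher and 1 lower, with a median log2 change of 0.05. The share called lower was near that of all tested genes (10.7%), of which 9.80% were called higher. At an unadjusted p under 0.05 the count was 1 higher, which DESeq2 also gave as called. The ligand dbl-1 was at 14.3, 16.1 and 13.3 CPM in WT and 14.9, 14.2 and 14.9 CPM in the mutant (log2 change 0.01, edgeR adjusted p = 0.944), and the groups overlapped. The receptors sma-6 (-0.32) and daf-4 (0.13) and the SMADs sma-2 (-0.24), sma-3 (0.28) and sma-4 (0.09) were not called. lon-1, a secreted protein whose transcript is known to be repressed by the pathway, fell from 105, 127 and 110 CPM to 71.4, 73.7 and 64.2 CPM (log2 change -0.70, SE 0.09, edgeR adjusted p = 0.0058). Without WT replicate 2, 6 genes of this list were called higher and 1 lower.

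**Figure D5:**
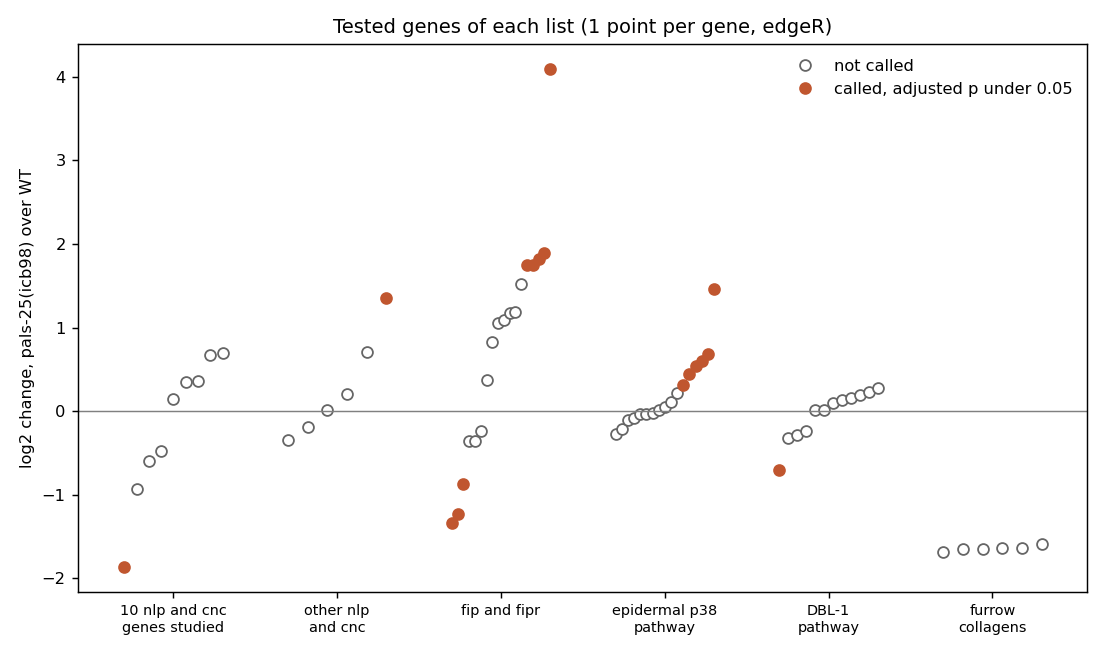
Log2 change of pals-25(icb98) over WT for every tested gene of 6 lists, 1 point per gene, with filled points for genes called by edgeR at an adjusted p under 0.05. The 10 peptide genes hold 1 called gene (cnc-3, -1.86), the epidermal p38 list 6 called genes that are all above 0, and the furrow collagens a tight row at -1.68 to -1.59 with no call.

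The furrow collagens (dpy-2, dpy-3, dpy-7, dpy-8, dpy-9 and dpy-10) form the annular furrows of the cuticle, and their loss is known to switch on nlp-29. dpy-8 was at 107, 394 and 169 CPM in WT and 67.3, 92.8 and 49.1 CPM in the mutant (log2 change -1.68, edgeR adjusted p = 0.0709). dpy-7 was at 78.4, 303 and 114 CPM in WT and 47.8, 70.9 and 40.7 CPM in the mutant (log2 change -1.64, edgeR adjusted p = 0.0836). WT replicate 2 was far above the rest for both, and all 6 genes had the same order of libraries within WT. None was called by edgeR (0 higher and 6 lower at an unadjusted p under 0.05), DESeq2 called 6 lower and limma-voom 0, and without WT replicate 2 the list's median went from -1.64 to -0.82 with none called.

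Other genes of the epidermis and of the molting cycle, in which cuticle is made anew, were read from the same fit. In a list of 32 molting and apical matrix genes, 14 were called lower and 2 higher, with a median log2 change of -1.23. Over all tested genes 10.7% were called lower and 9.80% higher. qua-1, a hedgehog-related protein needed for molting, fell by 1.51 (edgeR adjusted p = 0.0027) and ptr-23, a patched-related protein, rose by 1.43 (edgeR adjusted p = 0.0018). Other calls of small p were lin-42, the period-like timer of molting (-1.10, edgeR adjusted p = 0.0036), lrp-1, a megalin-like receptor (-1.29, edgeR adjusted p = 0.0049), and mlt-8 (-0.97, edgeR adjusted p = 0.0054). Leaving out 1 library gave 7 to 18 called lower, the lowest without mutant replicate 1. The part of the molting cycle in the cnc-3 value was not tested.

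Of 13 epidermal markers 4 were called lower and 0 higher (also 0 higher at an unadjusted p under 0.05 and by DESeq2), with 1 called lower without mutant replicate 1 and 2 without mutant replicate 2 or 3. Over all tested genes 10.7% were called lower and 9.80% higher. The 4 markers called lower were che-14 (log2 change -1.24), lin-26 (-0.31), pah-1 (-0.43) and wrt-2 (-1.56), with edgeR adjusted p of 0.0088, 0.0093, 0.0222 and 0.0394. Changes of mup-4 (0.39), elt-1 (0.17) and lin-1 (0.006) were above 0 and not called, and the remaining markers were below 0. Leaving out WT replicate 2 gave 1 called higher (grd-10, 0.68, edgeR adjusted p = 3.1e-04) and 5 lower. Over all tested genes 19.3% and 18.2% were called in that fit. In it wrt-2 was not called (edgeR adjusted p = 0.0838). No marker of this list was at 0, and its summed TPM was 476 to 848 in WT and 404 to 454 in the mutant. The lowest mutant library thus had 404 TPM where the lowest WT library had 476, and WT replicate 2 set the upper end in WT. Whether the epidermal share of the RNA has a part in the cnc-3 value was not tested.

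Markers of other tissues were detected in every list. Over all tested genes 9.80% were called higher and 10.7% lower, and 19.3% and 18.2% without WT replicate 2. A single call among 9 to 12 genes is near the first 2 shares. In the intestine 2 of 11 markers were called higher and 0 lower (also 0 lower at an unadjusted p under 0.05 and by DESeq2; ifb-2 at 0.60 and asp-1 at 0.38 on the log2 scale, edgeR adjusted p = 0.0049 and 0.0158), with summed TPM of 5664 to 5903 in WT and 6585 to 6977 in the mutant. Among 12 neuronal markers 1 was lower (syd-2, -0.42), among 10 of body wall muscle 1 was higher (unc-54, 0.19), and among 9 of pharynx 1 was higher (myo-5, 0.45) and 2 lower (ceh-22, -0.91, and phat-3, -1.32). Vitellogenins, the yolk proteins that appear as larvae turn adult, had 4 of 6 called higher (vit-5 by 2.53, vit-2 by 2.33, vit-6 by 1.77 and vit-1 by 0.57 on the log2 scale), with summed TPM of 488 to 990 in WT and 2140 to 2949 in the mutant. Among 14 germline and sperm genes none was called by edgeR (0 higher and 1 lower at an unadjusted p under 0.05, 1 lower by DESeq2), with summed TPM of 922 to 1821 in WT and 1951 to 2114 in the mutant. Several of these counts turned on 1 library: the 2 pharynx genes called lower numbered 0 without WT replicate 3 or any 1 mutant library, and the 4 vitellogenins 2 without mutant replicate 1 or 3. In muscle 0 were higher without WT replicate 3 or mutant replicate 1 or 3, and in the intestine 1 was higher without WT replicate 3 or mutant replicate 3. Without WT replicate 2, 5 intestinal markers were higher and 2 lower, 2 neuronal and 3 pharyngeal markers were higher, and 6 germline and sperm genes were higher and 2 lower. The part that these differences have in the values of the peptide genes was not tested.

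Genes whose level followed that of cnc-3 and nlp-29 most closely were ranked by Pearson's r of log2 CPM over the 6 libraries, among 14003 tested genes that averaged 1 CPM or more, as a description over libraries that share the difference between the groups. For cnc-3 they were C34B2.11, arf-1, T10B5.10 and C33G8.2 (r of 0.998 to 0.999), and 795 genes in all had r above 0.95. T10B5.10 was at 19.7, 21.5 and 20.3 CPM in WT and 7.48, 9.14 and 7.26 CPM in the mutant, with the WT libraries alike and mutant replicate 2 the highest of the mutant libraries. For nlp-29 they were swsn-3, rcat-1, seip-1 and dhhc-4 (r of 0.947 to 0.988), only 2 genes had r above 0.95, and the log2 changes of these 4 were 0.06 to 0.11 with none called.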

How the data were processed

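Reads from 3 WT and 3 pals-25(icb98) libraries had been assigned by the authors with kallisto to the WS235 transcriptome of WormBase, and the deposited tables list, for each transcript, an estimated count, its length and its effective length. The sources used here give no versions, read length or strand setting. The 35862 transcripts were summed by sequence name to 22010 genes, of which 21842 (99.2%) matched the Ensembl WBcel235 annotation, whose coordinates are printed. Sums were rounded, and TPM was computed here from estimated counts and effective lengths. Estimates for the 12 transcripts of the members were whole numbers within 1e-06.

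Genes were tested with edgeR 4.0.16 (robust quasi-likelihood F-test, TMM scaling, filterByExpr at a minimum count of 10, Benjamini-Hochberg over 16166 genes) in R 4.3.3, with the group alone in the model. Alternatives were DESeq2 1.42.0, limma 3.58.1 with voom and on log2 TPM with pseudocounts of 1 and 0.1, other scalings and filters, transcript-level tests, a replicate block, the study's thresholds, and leaving out each library. The authors' sleuth test was not run. The fit was tested on simulated data with the same spread for all genes and no outlying library. That test therefore does not cover the setting of WT replicate 2.

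All 10 members were named. From each other list up to 4 called genes of smallest p and the strongest in the opposite direction were named, or the 2 of smallest p where none was called. The rule also named any called gene of the p38 and DBL-1 lists, the 4 genes most like nlp-29 and cnc-3, and 6 checks (pals-25, pals-22, chil-27, pals-5, zip-1 and col-12, all called higher). Other genes of these pathways are given for their roles. The members and lists were chosen with earlier results of these data known. Of the listed genes 3 were not matched by symbol. The 95% intervals come from the edgeR fit and carry the spread between libraries, whereas the limit given for a count of 0 covers counting error only. Comparisons of protein and promoter sequences were not made here.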

Additional observations from a re-analysis of the deposited data

How the results depend on the processing

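cnc-3 was called lower under every alternative that tests at an adjusted p under 0.05, with log2 changes of -2.06 to -1.76 when 1 library was left out (edgeR adjusted p up to 0.0173). The study's thresholds, which ask for a log2 change beyond 2, called 0 members lower. Members called lower numbered 2 with TPM scaled to library totals, log2(TPM + 1) and log2(TPM + 0.1) with limma (cnc-2 and cnc-3), and 1 to 3 when 1 library was left out. Members called higher numbered 1 with DESeq2 and 0 to 3 when 1 library was left out, the highest of both counts being that without WT replicate 2. The direction of nlp-27 turned without WT replicate 3 (-0.015, within a range of -0.015 to 0.46). Summed nlp levels differed by 0.15 (log2) in TPM, 0.24 without WT replicate 2 and 0.0021 in counts. Of 160 alternative values for single members, 150 kept direction and call, 9 gained a call and 1 turned.

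Replicate numbers are shared between groups, and the deviations of same-numbered libraries had r of 0.081, 0.321 and 0.183, all above 0. WT replicate 1 and mutant replicate 3 correlated best with each other (0.218), and each remaining library with that of its own number. These values do not settle whether the numbers mark pairs, and the main fit did not pair them. With a replicate block, 0 members were called higher and 1 lower (cnc-3, -1.88, edgeR adjusted p = 0.0108). Depth limits cnc-1, cnc-2 and nlp-28, which had 0 to 66 counts per library. The order of levels and the shares of nlp-34 and cnc-4 without WT replicate 2 were added after seeing the data.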
